A study of Homo sapiens with 16 samples.

Results

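NORAD is a long noncoding RNA, and this account follows it together with the Pumilio gene PUM2 and 5 genes whose proteins are known to associate with NORAD: RBMX, TOP1, ALYREF, PRPF19 and CDC5L. The 7 genes were chosen by name and were found by NCBI gene number among the 27434 rows of each gene table. Each of the 7 had a row of its own and passed the filter on low counts in both cell lines.

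The libraries are poly(A) RNA from the osteosarcoma line U2OS and the colorectal carcinoma line HCT116, with 8 groups of 2 libraries. Wild-type U2OS cells received siRNAs against SAM68 or a non-targeting siRNA pool, at 50 nM, or the pcDNA3-HA-SAM68 plasmid, which carries mouse SAM68, or the pcDNA3.1(+) control plasmid, at 100 ng for 20000 cells. HCT116 cells, wild type or SAM68 KO (knockout), received an siRNA pool against NORAD or the non-targeting pool at 50 nM. All cells were transfected by Lipofectamine and harvested at 48 h. The labels do not say whether the knockout is 1 clone, or whether the replicates are separate cultures, so each p-value covers the spread between these samples and no more, and that spread may be technical.

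Pumilio proteins bind short sequences in the 3′ UTRs of many mRNAs and lower the stability and translation of those mRNAs. NORAD carries many such sequences and binds Pumilio proteins in the cytoplasm, and SAM68, encoded by KHDRBS1, is an RNA-binding protein that has been placed in the same regulation. NORAD has also been found with a nuclear group of proteins that includes RBMX, an RNA-binding protein of the hnRNP G type, topoisomerase I (TOP1), which relaxes DNA supercoils, the mRNA export adaptor ALYREF, and PRPF19 and CDC5L, core subunits of the PRP19 splicing complex.

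Depth was 11349545 to 27387412 expected counts per library. The KHDRBS1 row, which checks the labels, held 32.7% and 19.7% of the control mean under SAM68 siRNA, 214% and 239% under the SAM68 plasmid, and 13.8% and 16.8% of the wild-type mean in the 2 knockout libraries with control siRNA. By edgeR's quasi-likelihood test the knockout was called (adjusted p = 0.000155) and the SAM68 siRNA and plasmid were not (adjusted p = 0.185 and 1). Of 12 mesenchymal and bone markers, 10 reached at least 1 TPM (transcript level scaled for length and library) in all 8 U2OS libraries. In all 8 HCT116 libraries 4 of them did. TWIST1 was at 0 in U2OS, and COL1A2 was at 0.46 TPM or less. Of 12 colon epithelial markers, 7 reached that level in all 8 HCT116 libraries and 4 in all 8 U2OS libraries. In HCT116 VIL1 was at 0, and LGALS4, CEACAM5 and CDH17 were at 0.16 TPM or less. None of 7 blood, endothelial and liver markers reached it in either line, where their summed level was 0.07 to 1.79 TPM.

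The Pumilio motif was searched in the NORAD transcript of GENCODE 29 (chr20:36045622-36050960 on GRCh38, minus strand, a single exon with no coding sequence) as TGTANATA, where N is any base. The 5339-base transcript holds 15 copies, from base 761 to base 4606, and its opposite strand holds 1. Of the 25013 reference transcripts, one for each gene, 21.3% hold at least 1 copy and 2, NORAD included, hold 15 or more. Among the 13761 transcripts of at least 2000 bases, 2, again with NORAD, hold at least 2.81 copies per kilobase. A match is a description of letters and not a measured binding site.

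The 15 copies are of 3 forms: 10 are TGTATATA, 4 are TGTAAATA and 1 is TGTACATA. In 3 places a pair of copies starts 9 bases apart, so that a single base separates them. These pairs are shown because they are the densest stretches, with the motif copies in capitals, 5′ to 3′; they lie at chr20:36049496-36049525, chr20:36048299-36048328 and chr20:36047663-36047692.
NORAD copies 4 and 5: tatctgTGTATATAgTGTACATAaaggaca
NORAD copies 9 and 10: ctatacTGTATATAtTGTATATAtaacgga
NORAD copies 12 and 13: gtgctgTGTATATAgTGTATATAagcggac

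**Figure D1:**
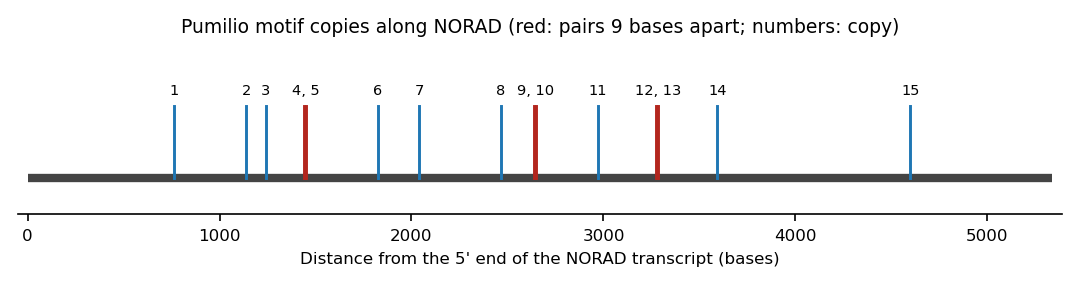
The 15 copies of the Pumilio motif along the NORAD transcript, on an axis of bases from its 5′ end. The 3 pairs whose starts are 9 bases apart are red and the other copies are blue; the copies lie between base 761 and base 4606 of 5339.

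The 4 TGTAAATA copies, shown next because their surroundings match, all directly follow TT and are followed, after 1 base of any kind, by CTTT. That frame was chosen after the copies were read, and of 2993 TGTAAATA copies in the other transcripts 0.368% lie in such a frame. The windows are at chr20:36049702-36049731, chr20:36049118-36049147, chr20:36048477-36048506 and chr20:36046344-36046373.
NORAD copy 3: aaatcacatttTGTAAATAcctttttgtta
NORAD copy 6: aaataccacttTGTAAATAtctttttgcta
NORAD copy 8: gaataacacttTGTAAATAgcttttaaaaa
NORAD copy 15: attagcctattTGTAAATAcctttgttata

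Of the 10 TGTATATA copies, 6 follow directly on CTG, against 1.97% of 2635 such copies in the other transcripts. This feature was also chosen after the copies were read. Copies 2, 11 and 14 show it, at chr20:36049803-36049832, chr20:36047971-36048000 and chr20:36047350-36047379.
NORAD copy 2: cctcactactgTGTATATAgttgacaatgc
NORAD copy 11: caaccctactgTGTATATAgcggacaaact
NORAD copy 14: caatgctactgTGTATATAatggaaaactt

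SAM68 is known to prefer U(U/A)AA-type sequences, that is, UAAA or UUAA. Only the UAAA form was counted, as TAAA on the transcript strand, and the UUAA form was not counted. NORAD holds 46 TAAA, or 8.62 per kilobase, against a median of 4.71 over the transcripts of at least 2000 bases, and has more per kilobase than 83.4% of them. Within 50 bases downstream of a Pumilio motif, TAAA was present at 5 of the 15 NORAD copies and at 41.1% of the 8191 copies elsewhere. Within 50 bases upstream it was present at 4 of 15 and at 38.5%. TAAA is thus frequent in NORAD but not more often beside its Pumilio motifs than beside those of other transcripts, as a count with no test.

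Among the other members, PUM2 holds 2 copies of TGTANATA and CDC5L 1, all in the 3′ UTR, at its bases 425 and 685 in PUM2 and 1554 in CDC5L, and RBMX, TOP1, ALYREF and PRPF19 hold none in their GENCODE transcripts. On its opposite strand the PUM2 transcript also holds 2 copies, and the CDC5L transcript holds 0. At least 1 copy is held by 21.3% of all reference transcripts. The copies are shown because PUM2 and CDC5L are members whose own mRNA carries the letters that Pumilio proteins bind.
PUM2 copy 1: gtttatagagaTGTATATAgaattatagtc
PUM2 copy 2: tacagaaatatTGTATATActtacatatgt
CDC5L copy: aatggcatttcTGTATATAagacctcgttg

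NORAD was called under the siRNA pool against it, and within the lines no other member was called in any comparison. Levels are given as CPM, the count scaled to library size with TMM factors within each cell line. The wild-type HCT116 control libraries held NORAD at 249 and 232 CPM, and the NORAD siRNA libraries at 50.2 and 47.4 CPM. In the SAM68 knockout the controls held it at 225 and 252 CPM and the siRNA libraries at 77.4 and 54.7 CPM. The treated libraries lay below every control library in both genotypes, without overlap. In bulk RNA, fewer cells with a transcript and less of it per cell cannot be told apart.

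The siRNA left 20.9% and 19.7% of the control mean in the wild-type libraries and 32.5% and 23.0% in the knockout libraries. NORAD fell by 2.30 ± 0.16 (SE) on the log2 scale in wild-type cells (edgeR adjusted p = 0.00099) and by 1.85 ± 0.16 in knockout cells (edgeR adjusted p = 0.0061), and by 2.08 ± 0.11 averaged over both. In each genotype NORAD was 1 of the 7 members called, and the only gene called at all, 0.00727% of 13764. Without replicate 2 of the knockout control libraries, the knockout value was -1.78 with an edgeR adjusted p of 0.0542; the other 9 of its 10 alternatives were called, with values between -2.13 and -1.63 over all 10.

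The siRNA effect in knockout cells was smaller by 0.45 ± 0.21 on the log2 scale, with a 95% interval of -0.03 to 0.93. That difference did not pass edgeR's test (unadjusted p = 0.0655, edgeR adjusted p = 0.642 over all genes). It was 0.17 without replicate 1 and 0.67 without replicate 2 of the knockout NORAD siRNA libraries, and 0.23 with an offset for GC content and length, with edgeR adjusted p-values of 0.744, 0.587 and 0.9999. No gene was called for this difference, 0% of 13764, while 1048 genes had an unadjusted edgeR p below 0.05 and DESeq2 called 2.

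NORAD was not called for SAM68 loss or gain. Under control siRNA, the knockout-to-wild-type difference was -0.01 ± 0.15 on the log2 scale (edgeR adjusted p = 0.986), with an interval of -0.35 to 0.32. The U2OS libraries held NORAD at 446 and 442 CPM in the siRNA controls, 420 and 273 CPM after SAM68 siRNA, 310 and 254 CPM with the control plasmid, and 262 and 316 CPM with the SAM68 plasmid. Both SAM68 siRNA libraries lay below both controls, but replicate 2 lay much further below than replicate 1. Groups in this comparison did not overlap for 18.9% of all genes tested. The NORAD difference was -0.36 ± 0.23 (edgeR adjusted p = 1). It was -0.08 without SAM68 siRNA replicate 2 and -0.62 without replicate 1. For the plasmid it was 0.04 ± 0.23.

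**Figure D2:**
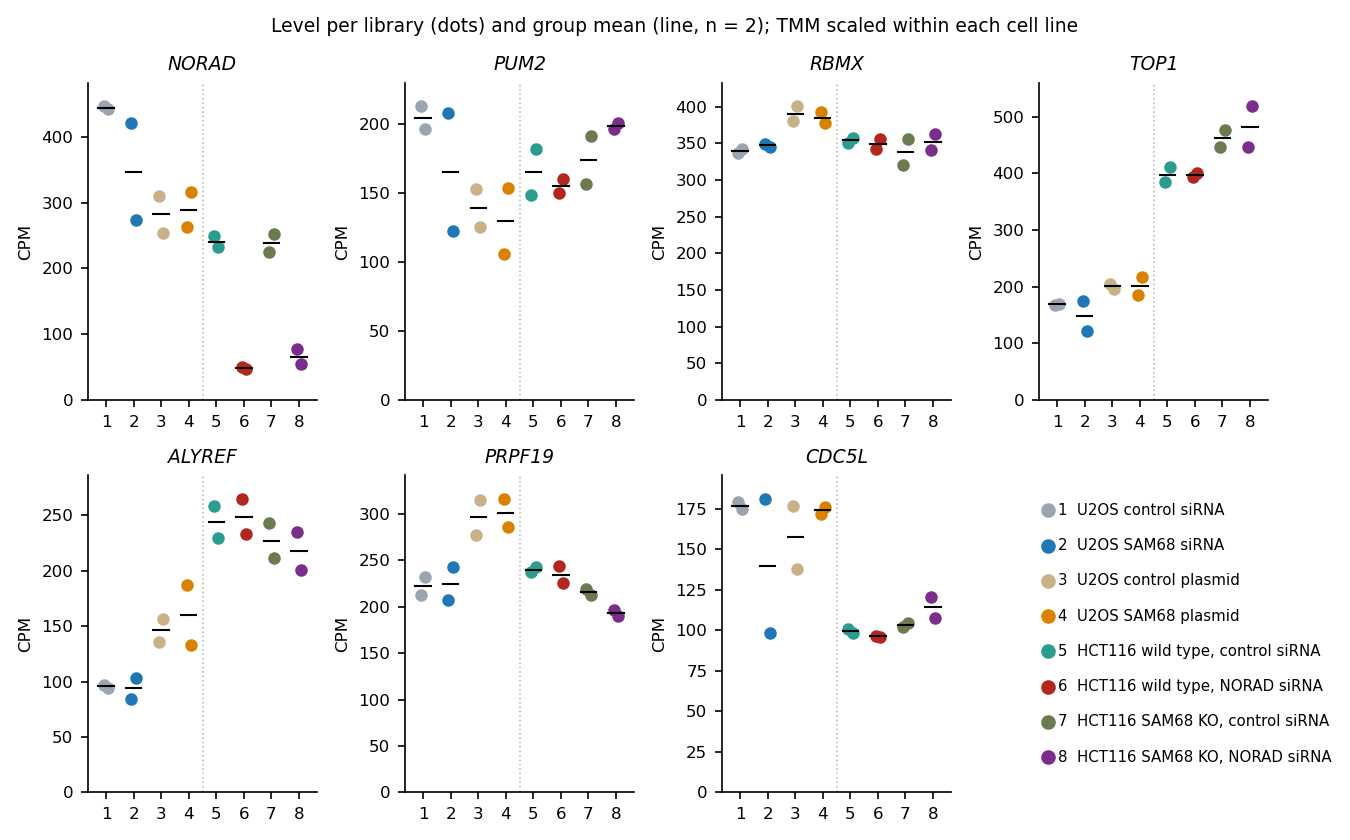
Level of each of the 7 members in CPM (vertical axis, from 0) in the 16 libraries; dots are libraries, lines are means of 2 libraries, and the dotted line parts U2OS from HCT116, which were scaled separately. NORAD drops under NORAD siRNA (groups 6 and 8), and the other members are not called within either line; CDC5L, PUM2 and TOP1 each have a low library in the U2OS SAM68 siRNA group.

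NORAD levels per transcript length, in TPM, ran in a wide order over the groups. The highest was 166 ± 2.66 TPM (SD, n = 2) in U2OS with control siRNA, followed by 131 ± 46 under SAM68 siRNA, 91.8 ± 15 with the control plasmid and 87.6 ± 26.3 with the SAM68 plasmid. HCT116 followed with 77.2 ± 0.29 in wild-type and 76.2 ± 9.84 in knockout controls, then 20.015 ± 2.58 and 15.4 ± 0.177 under NORAD siRNA in knockout and wild-type cells. The SAM68 siRNA group's spread covered both of its neighbours, and the 2 plasmid groups, the SAM68 plasmid group and its HCT116 neighbour, and the 2 HCT116 control groups did not differ beyond their spread. In rank among all genes with a level above 0, NORAD moved from 1907 of 17355 in wild-type HCT116 controls to 6408 of 17614 under its siRNA.

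PUM2, which encodes a Pumilio protein, was not called under any perturbation. In HCT116 it was at 148 and 182 CPM in wild-type controls, 150 and 160 under NORAD siRNA, 156 and 191 in knockout controls, and 196 and 201 in knockout cells under NORAD siRNA. The last 2 libraries were the highest of the line, just above the knockout controls. Between these 2 groups, 43.5% of all genes tested did not overlap. The log2 difference from the knockout controls was 0.19 ± 0.13 (edgeR adjusted p = 0.549). For wild-type cells it was -0.09 ± 0.13 (edgeR adjusted p = 0.999).

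Among the U2OS libraries PUM2 stood at 212 and 196 CPM in siRNA controls, 208 and 122 after SAM68 siRNA, 153 and 125 with the control plasmid and 106 and 153 with the SAM68 plasmid. One library of each SAM68 group was low while the other stood with its controls. The differences were -0.31 ± 0.27 for the siRNA and -0.10 ± 0.27 for the plasmid (edgeR adjusted p = 1 for both), and the siRNA value was 0.02 without SAM68 siRNA replicate 2 and -0.65 without replicate 1 (edgeR adjusted p = 1 and 0.394). The 95% interval for the siRNA ran from -0.92 to 0.31.

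The low U2OS SAM68 siRNA library, replicate 2, was low for members whose transcripts have little GC and are also long. It held 55.4% of the control mean for CDC5L (38.8% GC), 60.0% for PUM2 (40.7% GC), 61.5% for NORAD (41.6% GC) and 72.7% for TOP1 (42.2% GC), but 102% for RBMX (45.5% GC), 109% for PRPF19 (56.6% GC) and 108% for ALYREF (57.5% GC). Replicate 1 lay between 88.0% and 103% for all 7. With an offset for GC content and length centred in each library, the SAM68 siRNA values were -0.25 for NORAD, -0.18 for PUM2 and -0.20 for CDC5L, and none was called. The transcripts of CDC5L, PUM2, NORAD and TOP1 have 6423, 6251, 5339 and 3738 bases. Those of RBMX, PRPF19 and ALYREF have 2012, 2157 and 1088. Among the 7 members GC content and length thus cannot be told apart, and the offset covers both. The part of either in the uncorrected values was not tested further.

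The genes whose pattern over the 16 libraries was most like that of PUM2, by Pearson's r of log2 CPM centred within each line over 11453 genes, were INTS2 (0.992), CLOCK (0.990), TASOR (0.987), UBR3 (0.985) and MED13 (0.985). Their transcripts have 36.0% to 40.2% GC, close to the 40.7% of PUM2, and the GC content of the genes compared was not summarized. For NORAD the most alike were TCF7 (0.81), TBCEL (0.78), ZNF738 (0.72), VSIR (0.71) and TGFA (0.70), with 36.1% to 59.2% GC. These values describe shared patterns over libraries that also differ in depth and base composition. For NORAD the pattern includes the libraries treated with siRNA against it.

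The mean length of the PUM2 transcripts was lower in each SAM68 knockout library than in any wild-type HCT116 library. The deposited mean transcript length, weighted by the estimated share of each of the 4 PUM2 transcripts in the table, was 6284.5, 6285.6, 6286.77 and 6303.97 bases in the wild-type HCT116 libraries. In the knockout libraries it was 6240.08, 6245.48, 6194.07 and 6222.03 bases. The lower values held under control and under NORAD siRNA alike.

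The mean was 6290 ± 9.22 bases (SD, n = 4) in wild type and 6225 ± 23.2 in knockout, a difference of -64.8 bases. An exact permutation test gave a two-sided p of 0.0286, the smallest that 4 against 4 libraries allow, or 0.0571 adjusted over the 2 members with several transcripts. RBMX, the other such member, differed by 0.27 bases (exact permutation p = 0.714). The comparison was chosen after the values were seen. Groups without overlap always give the smallest possible p, so for PUM2 the test adds nothing to the lack of overlap. Each group of 4 also pools libraries with control siRNA and with NORAD siRNA. Of 7645 genes with several transcripts, 6.42% also had groups that did not overlap. In U2OS, PUM2 length spanned 6191.95 to 6280.0 bases and the groups compared overlapped.

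**Figure D3:**
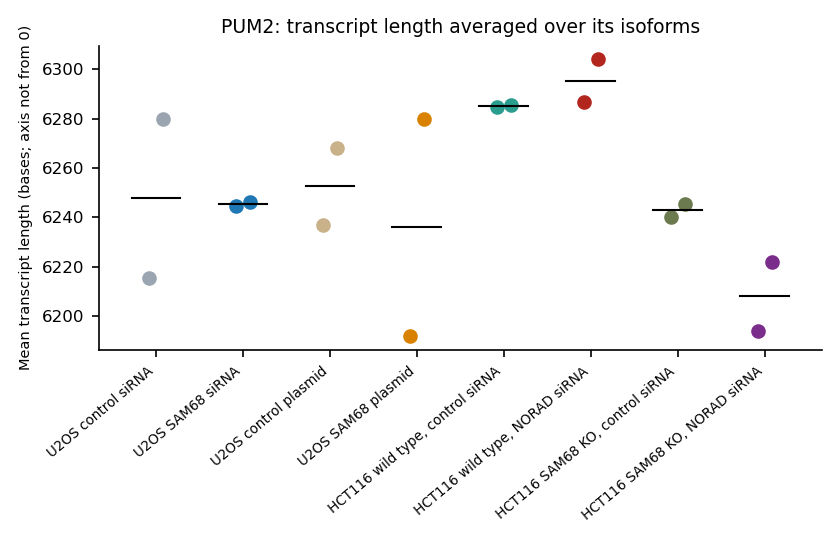
Mean PUM2 transcript length in bases (vertical axis, not from 0) in each library (dots) with group means (lines, n = 2). The 4 HCT116 wild-type libraries lie at 6284.5 bases or more and the 4 knockout libraries at 6245.48 or less, while the U2OS groups overlap.

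The number of NORAD transcripts per PUM2 transcript, the ratio of their TPM values, stayed within a narrow range in U2OS, where both levels varied. It was 2.56 ± 0.15 (SD, n = 2) under control siRNA, 2.50 ± 0.17 under SAM68 siRNA, 2.39 ± 0.011 with the control plasmid and 2.66 ± 0.32 with the SAM68 plasmid. In HCT116 it was 1.75 ± 0.33 in wild-type and 1.62 ± 0.096 in knockout controls. NORAD siRNA brought it to 0.374 ± 0.031 and 0.390 ± 0.1, so that PUM2 transcripts then outnumbered NORAD transcripts in all 4 treated libraries.

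NORAD's share of the Pumilio motif copies was larger than its share of TPM. That excess follows from its 15 copies by construction and is not a result about its level. The share was computed as TPM times TGTANATA copies for NORAD over the sum for all genes with a reference transcript, which held 97.7% to 99.5% of TPM. NORAD carried 1.03% of all copies in both U2OS control siRNA libraries, where it was 0.0168% and 0.0164% of TPM. The highest share of any other gene in these libraries was 4.22% and 4.25%. In wild-type HCT116 controls it carried 0.571% and 0.525%, and in knockout controls 0.510% and 0.553%.

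Under NORAD siRNA the share was 0.117% and 0.110% in wild-type and 0.156% and 0.118% in knockout cells. NORAD ranked 8 to 18 among genes by copies carried in the libraries without NORAD siRNA and 71 to 117 in the libraries with it. With the longest transcript of each gene in place of the transcript closest to the deposited length, the shares were lower, at 0.658% in U2OS control siRNA, 0.338% in wild-type controls and 0.069% after NORAD siRNA, and the ranks were 19 to 36 without and 117 to 179 with NORAD siRNA. With 3′ UTRs and noncoding RNAs alone they were 1.19%, 0.626% and 0.130%. Both alternatives were chosen after seeing the data.

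**Figure D4:**
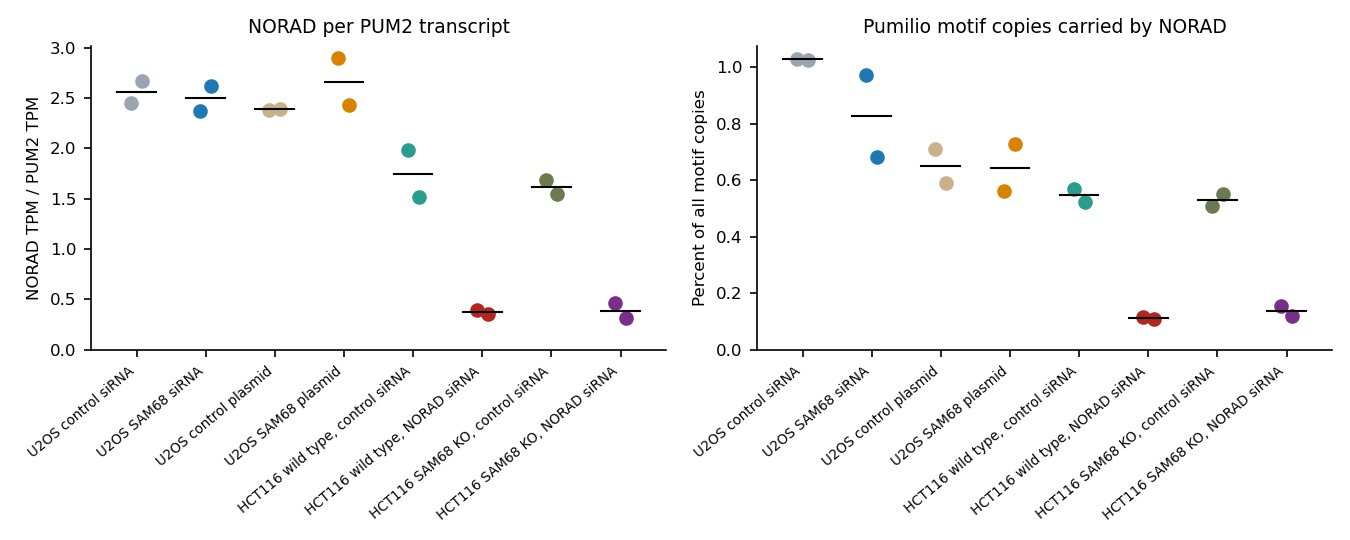
Left, NORAD TPM divided by PUM2 TPM in each library (dots) with group means (lines, n = 2); right, percent of all TGTANATA copies in the measured RNA that NORAD carries. The ratio lies at 1.51 or more in every library without NORAD siRNA and at 0.46 or less with it.

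RBMX, which encodes the hnRNP G protein, kept to a narrow range of levels. In HCT116 it was at 351 and 357 CPM in wild-type controls, 342 and 356 under NORAD siRNA, 320 and 356 in knockout controls, and 341 and 363 in knockout cells under NORAD siRNA. The U2OS values were 337 and 343 CPM in siRNA controls, 350 and 345 with SAM68 siRNA, 381 and 400 with the control plasmid and 392 and 378 with the SAM68 plasmid. Within each line no perturbation was called, and the log2 differences ran from -0.07 to 0.06, with 95% intervals that together spanned -0.36 to 0.37. An RBMX retrocopy, RBMXL1, is 95.7% identical to RBMX over 2019 bases, so reads shared between them can be split. Its row, joined with another gene number, held 45.8 to 83.5 CPM.

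TOP1 stood somewhat higher in SAM68 knockout cells but did not pass the test. It was at 384 and 410 CPM in wild-type HCT116 controls, 393 and 400 under NORAD siRNA, 447 and 477 in knockout controls and 446 and 518 in knockout cells under NORAD siRNA. All 4 knockout libraries, over both siRNAs, exceeded all 4 wild-type libraries, and the share of all genes that did so was not computed. Under control siRNA alone, the genotypes did not overlap for 34.6% of all genes tested. The knockout difference under control siRNA was 0.22 ± 0.10 on the log2 scale (edgeR unadjusted p = 0.0638, adjusted 0.576), and NORAD siRNA gave -0.00 ± 0.10 in wild-type and 0.06 ± 0.10 in knockout cells. The U2OS values were 168 and 169 CPM in siRNA controls, 174 and 123 with SAM68 siRNA, 205 and 196 with the control plasmid and 186 and 216 with the SAM68 plasmid, which overlap within each pair of groups.

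ALYREF, which hands mRNA to the nuclear export receptor, was at 258 and 229.5 CPM in wild-type HCT116 controls, 265 and 233 under NORAD siRNA, 243 and 212 in knockout controls and 235 and 200.4 in knockout cells under NORAD siRNA. The U2OS values were 97.0 and 94.5 CPM in siRNA controls, 84.3 and 104 with SAM68 siRNA, 136 and 157 with the control plasmid, and 188 and 133 with the SAM68 plasmid. The treated and control libraries overlapped in every comparison within a line, and the largest log2 difference was 0.13 ± 0.21 for the plasmid.

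PRPF19, the ubiquitin ligase of the PRP19 complex, was lower in HCT116 knockout libraries than in wild-type libraries by small amounts. It was at 237 and 243 CPM in wild-type controls, 244 and 225 under NORAD siRNA, 219 and 212 in knockout controls, and 196 and 190 in knockout cells under NORAD siRNA. The groups did not overlap for the knockout or for NORAD siRNA in knockout cells, as for 34.6% and 43.5% of all genes tested. The log2 differences were -0.15 ± 0.09 and -0.16 ± 0.09, and neither passed the test (adjusted p by edgeR 0.670 and 0.496). PRPF19 in U2OS stood at 213 and 232 CPM in siRNA controls, 207 and 242 with SAM68 siRNA, 277 and 315 with the control plasmid and 316 and 286 with the SAM68 plasmid.

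CDC5L, the Myb-type subunit that binds PRPF19 in the complex, stayed within a few CPM of its controls in HCT116 except in 1 library. It was at 101 and 98.3 CPM in wild-type HCT116 controls, 96.7 and 95.8 under NORAD siRNA, 102 and 104 in knockout controls, and 121 and 108 in knockout cells under NORAD siRNA. The differences were -0.05 ± 0.10 in wild type and 0.14 ± 0.10 in knockout (edgeR adjusted p = 0.999 and 0.552). With the offset for GC content and length they were 0.05 and -0.07. CDC5L in U2OS stood at 179 and 175 CPM in siRNA controls, 181 and 98.1 with SAM68 siRNA, 177 and 138 with the control plasmid and 172 and 176 with the SAM68 plasmid, where a single low library set each of the wide groups.

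Counted together, 0 of 7 members were called for SAM68 siRNA in U2OS, 0 of 7 for the SAM68 plasmid and 0 of 7 for the SAM68 knockout by edgeR, against 0.00639%, 0.00639% and 0.312% of all genes tested. At an unadjusted p below 0.05 edgeR gave 166, 86 and 1269 genes in these comparisons. Groups did not overlap for 2 members under SAM68 siRNA, 0 with the plasmid, 2 and 4 under NORAD siRNA in wild-type and knockout cells, and 3 in the knockout. The same held for 18.9%, 18%, 27%, 43.5% and 34.6% of all genes tested, so the members' counts say nothing particular about them. The median log2 difference of the members ran over these 5 comparisons from -0.18 under SAM68 siRNA to 0.06 under NORAD siRNA in knockout cells, beside medians of all genes between -0.01 and 0.01.

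**Figure D5:**
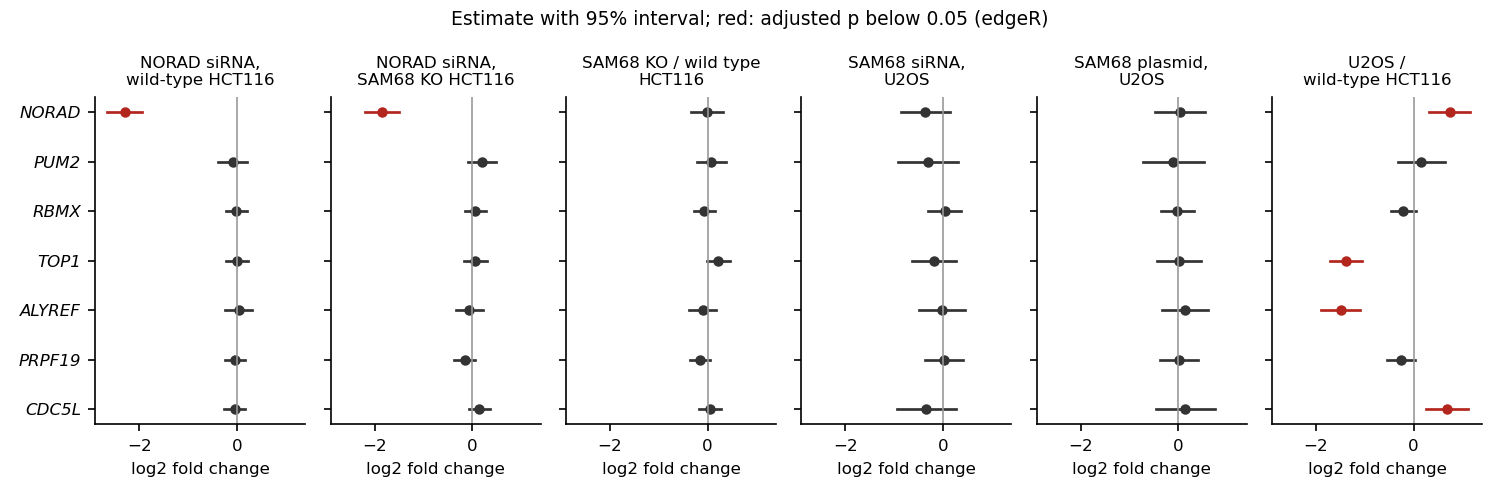
Log2 fold change of the 7 members (horizontal axis) with its 95% interval from edgeR in 6 comparisons; red marks an adjusted p below 0.05. NORAD is red at -2.30 and -1.85 under NORAD siRNA, the within-line intervals of the other members cross 0, and 4 members are red between the cell lines.

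The other genes of these pathways, from lists chosen by known membership, gave no call within either line. The lists held 6 further PRP19 complex subunits, 11 related splicing factors, 18 genes of the TREX complex and mRNA export, 7 topoisomerases and tyrosyl-DNA phosphodiesterases, 4 RBMX family genes, of which 2 were tested, and 5 PUF-related or Nanos genes, of which 3 were tested. For NORAD siRNA in knockout cells, the genes with the smallest p in the first 4 lists were BCAS2, a PRP19 complex subunit, at 0.32 ± 0.13 on the log2 scale, XAB2, a splicing factor, at -0.33 ± 0.13, FYTTD1, an mRNA export adaptor, at 0.26 ± 0.10, and TOP2A, the topoisomerase II of dividing cells, at 0.26 ± 0.11. Their edgeR adjusted p-values were 0.428, 0.431, 0.428 and 0.438. In the last 2 lists they were RBMXL1, whose row is joined with another gene number, at 0.31 ± 0.13 and PUM3 at 0.21 ± 0.10. The edgeR adjusted p-values were 0.437 and 0.445. Over all genes tested, 1558 had an unadjusted edgeR p below 0.05 in this comparison.

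Between U2OS and wild-type HCT116 under control siRNA, edgeR called 4 of 7 members, against 65.4% of 16444 genes, and 6 of 7 did not overlap, against 85.1%. TOP1 was at 91.6 ± 0.552 TPM in U2OS and 186 ± 17.5 in HCT116, and ALYREF at 199 ± 3.96 and 443 ± 10.9. Their log2 differences, U2OS over HCT116, were -1.38 ± 0.15 and -1.50 ± 0.18 (adjusted p by edgeR 2.24e-06 and 6.26e-06). NORAD, at 166 and 77.2 TPM, was higher in U2OS by 0.74 ± 0.20, and CDC5L, at 54.7 and 26.4 TPM, by 0.68 ± 0.20 (edgeR adjusted p = 0.00435 and 0.00882).

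PUM2 (0.16 ± 0.22), RBMX (-0.21 ± 0.12) and PRPF19 (-0.26 ± 0.13) were not called between the lines. No median was subtracted from these values. The median over all genes was 0.10, and it was -0.32 with an offset for GC content and length. On that scale NORAD was at -0.0027 (edgeR adjusted p = 0.987, while its other 9 alternatives were called), CDC5L turned to -0.14 and PUM2 turned to -0.65, while TOP1 and ALYREF stayed lower in U2OS. With the offset centred in each library, NORAD was at 0.51 and CDC5L at 0.37, and both were called. Line, experiment and library preparation cannot be told apart in this comparison.

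In the same comparison between the lines, where edgeR called 65.4% of all 16444 genes (5862 higher and 4898 lower in U2OS), 0 of 18 TREX and export genes were higher and 10 were lower, with a median of -0.58. Among them were SARNP (-1.30 ± 0.23), DDX39A, an RNA helicase of the export pathway (-1.09 ± 0.18), and THOC3 (-0.97 ± 0.15). Of the PRP19 subunits 1 was higher and 2 lower, with HSPA8 at -0.89 ± 0.12, PLRG1 at -1.01 ± 0.15 and WBP11 at 0.88 ± 0.16. Of 11 related splicing factors 1 was higher, PPIL1 at 0.47 ± 0.12. The 4 lower ones included XAB2 at -1.64 ± 0.18 and PPIE at -1.15 ± 0.17. Of the topoisomerase list 1 was higher, TOP2A at 1.62 ± 0.26, and 3 were lower.

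Several genes resemble NORAD closely. HCG11, a noncoding RNA 90.5% identical to NORAD over 4661 bases, has its own row, at 11.8 to 19.4 CPM in U2OS and 0.24 to 0.73 CPM in HCT116, and its level under NORAD siRNA was not called (0.39 ± 0.54 on the log2 scale in wild-type cells and 0.53 ± 0.56 in knockout cells). OVCH1-AS1, 95.9% identical over 4614 bases, had 0 counts in all 16 libraries. Reads shared between such copies are divided by an estimate in this kind of table, and the levels of these 2 rows in HCT116 were small beside that of NORAD. The near copies AL391294.1, LINC02228, AC099499.2 and AL590381.1 were not analysed here.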

How the data were processed

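Poly(A) RNA was profiled in 16 libraries, and 1 gene table per library was deposited. The expected counts, estimated reads per gene over RefSeq transcripts, were deposited by the authors unnormalized, per the file headers, and were rounded for the tests. The TPM values and the mean transcript lengths in bases were used as deposited by the authors. The submitters' processing notes name STAR, RSEM and hg19; the sources used here give neither versions nor the strand setting of the counting.

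Each line was fitted with its 4 groups (all 16 libraries for the comparison between lines) in edgeR 4.0.16 (R 4.3.3, limma 3.58.1): filterByExpr, TMM, quasi-likelihood test, Benjamini-Hochberg over 15658 genes in U2OS, 13764 in HCT116 and 16444 in both, called at 0.05. The groups share 1 estimate of the spread (biological coefficient of variation 20.0% in U2OS and 11.3% in HCT116). The script recovered known changes in counts simulated independently for each gene. That checks the code and not what could be missed in these libraries, where KHDRBS1 was not called under the SAM68 siRNA or plasmid. Replicates differed by more than sampling noise (chi-square per gene 7.83 to 60.1). Total counts of 11349545 or more per library put at least 922 counts on NORAD even after its siRNA. Alternatives were DESeq2 1.42.0, its size factors in edgeR, no count filter, the replicate number as a block, a GC and length offset, and leaving out each library. Named genes were the 7 members, then, per list and comparison, genes from those with the smallest p, up to 3 where called. Not every gene so chosen is printed.

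The members and lists were chosen with earlier results of these data known. Sequences came from GENCODE 29 transcripts, of GRCh38, another build than hg19, and near copies from BLAST 2.17.0 at 90% identity or more over 200 bases or more. 1 further gene is not reported here.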

Additional observations from a re-analysis of the deposited data

Results flagged for a closer look

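CDC5L moved in opposite directions under NORAD siRNA in the 2 HCT116 genotypes: both wild-type libraries lay below both of their controls and both knockout libraries above theirs. The difference between the effects was 0.19 ± 0.14 on the log2 scale, with a 95% interval of -0.12 to 0.50, and it did not pass edgeR's test (adjusted p = 0.667). Groups of 2 libraries gave non-overlapping values for 27% of all genes in wild-type and 43.5% in knockout cells. With the offset for GC content and length both signs turned, to 0.05 in wild-type and -0.07 in knockout cells. Of the 7 members CDC5L has the lowest GC content, 38.8%, and the longest transcript, 6423 bases.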

How the results depend on the processing

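For the 7 members in 8 comparisons, 616 alternative values were computed, and 608 kept their side of the threshold; 40 of the 56 results changed sign in at least 1 alternative, 3 of them with a call on either side. Those 3 came from the GC and length offset between the lines: NORAD -0.0027 (edgeR adjusted p = 0.987), CDC5L -0.14 (0.337) and PUM2 -0.65 (1.07e-05); RBMX (-0.79) and PRPF19 (-0.41) were then called. Centred in each library, a choice made after seeing the data, the offset called RBMX at -0.28, and the replicate block called PRPF19 at -0.34. Without knockout control replicate 2, NORAD under its siRNA in knockout cells was at -1.78 (adjusted p = 0.0542). That offset moves the median of all genes by construction.

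The count of genes called, in the order SAM68 siRNA, SAM68 plasmid, NORAD siRNA in wild type, in knockout, their difference, their average and the knockout (1, 1, 1, 1, 0, 1 and 43), was 27, 15, 33, 61, 30, 48 and 272 without a count filter and 7, 4, 5, 9, 2, 15 and 114 with DESeq2. With the replicate block it was 0, 0, 3, 7, 2, 15 and 254; the labels do not say that a number pairs libraries, 2 numbers cannot show it, and no member's call within a line changed. With the GC and length offset it was 0 and 0 in U2OS, 3 in knockout cells, 15 averaged and 303 for the knockout, and centred 0, 0, 3, 13 and 322. Leaving out 1 library gave 0 to 5, 0 to 4, 1 to 2, 0 to 4, 0 to 1, 1 to 3 and 20 to 41; members called for NORAD siRNA in knockout cells were 0 to 1, with 0 without knockout control replicate 2. The cause of these moves was not tested.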

Other observations

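The 6 genes nearest to NORAD on chromosome 20 (PHF20, SCAND1 and CNBD2 on the side of lower coordinates, EPB41L1, AAR2 and DLGAP4 on the other, by the order of the RefSeq table of GRCh38.p14) were not called by edgeR in any comparison within a line. Under NORAD siRNA, DLGAP4 was at -0.00 ± 0.11 on the log2 scale in wild-type and -0.41 ± 0.11 in knockout cells (edgeR adjusted p = 0.999 and 0.428), and EPB41L1, which encodes a membrane skeleton protein, at 0.10 ± 0.10 and -0.25 ± 0.10 (edgeR adjusted p = 0.999 and 0.433). Values for the 2 were chosen after they were seen. Between the lines, CNBD2 was higher in U2OS by 1.399 ± 0.364 (edgeR adjusted p = 0.00374), as were EPB41L1 and DLGAP4. PHF20, SCAND1 and AAR2 were not called there, where edgeR called 65.4% of 16444 genes.

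The 2 U2OS control groups, which differ in the transfected agent, stood apart for several members, a comparison outside the design and not tested. The share of all genes that stood apart between them was not computed. NORAD was at 446 and 442 CPM with control siRNA but 310 and 254 CPM with the control plasmid, and PUM2 at 212 and 196 against 153 and 125. ALYREF stood the other way, at 97.0 and 94.5 CPM against 136 and 157, as did PRPF19, at 213 and 232 against 277 and 315. RBMX (45.5% GC, 2012 bases) was also higher with the control plasmid, at 381 and 400 CPM against 337 and 343. NORAD and PUM2 transcripts have 5339 and 6251 bases, and those of ALYREF and PRPF19 1088 and 2157. GC content is 41.6% and 40.7% for NORAD and PUM2, and 57.5% and 56.6% for ALYREF and PRPF19. TOP1 and CDC5L did not follow that order: TOP1 (42.2% GC) was at 168 and 169 CPM with control siRNA and 205 and 196 with the control plasmid, and CDC5L (38.8% GC) at 179 and 175 against 177 and 138.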
